A study of Mus musculus with 2 samples.

Results

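The genes described here are 7 members or neighbours of the TGF-beta signalling system, read in single cells of mouse tumours: the secreted ligands Gdf15, Inhba and Tgfb1, the receptors Tgfbr1, Tgfbr2 and Acvr2a, and Tgfbi, a matrix protein named for its induction by TGF-beta. They were chosen by name from 34290 genes in the deposited matrices, with the difference between the libraries in Gdf15 already known, so each ratio below is a description and carries no test. MC38, a line of mouse colorectal cancer cells, had been engrafted, and the tumours were taken 21 days later from mice that received no treatment. One library came from tumours of vector control cells and one from tumours of TMEM16F KO cells; TMEM16F is a phospholipid scramblase encoded by Ano6, and the deletion was in the engrafted cells, not in the host. How many mice stand behind a library, and how many knockout clones were used, is not stated in the labels. With 1 library per group there is no spread between replicates, and every interval below covers counting error only.

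TGF-beta family ligands are dimers that bind a type II receptor, which then recruits and activates a type I receptor, and the pair passes the signal to Smad proteins. TGF-beta 1 is secreted in a latent form and needs release before it can bind Tgfbr2 and Tgfbr1. A dimer of Inhba chains is activin A, which binds Acvr2a or its relative Acvr2b, while Gdf15, a stress-induced member of the family, signals through Gfral, a receptor known from the hindbrain. In tumours, macrophages and fibroblasts are common sources of these ligands, and T and NK cells are among the cells that TGF-beta restrains.

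UMIs (unique molecular identifiers, each counting 1 captured RNA molecule) totalled 49777630 over 5993 barcodes for TMEM16F KO and 46338994 over 5253 barcodes for the vector control. After filters 5688 and 5028 cells remained, with medians of 5995 and 6019.5 UMIs, and 10 barcode sequences occurred in both libraries. The study gives 10782 cells in 14 types, against the 10716 cells kept here. Cells were put into 8 classes by the UMIs of marker genes, and each class is named "-like" because the names were rebuilt here. Macrophage-like cells numbered 2469 in the TMEM16F KO library and 2169 in the vector library, monocyte-like cells 505 and 465, and stroma-like cells 52 and 70. No class was made for 1514 and 1492 cells, including a cluster with few UMIs that held 37 and 399 cells. Summed over kept cells, the 8 markers of tumour epithelium came to 18.7 and 30.3 CPM (UMIs per 1000000 UMIs), with Krt19 and Cldn4 at 0 in both. Whether MC38 cells carry these markers, and whether any of the cells read are MC38 cells, was not tested; stroma-like cells held the 8 cycling markers at 1180 and 2022 CPM. Ano6 was at 33.3 and 28.7 CPM over all kept cells, a ratio of 1.16 with an interval from 1.08 to 1.25. In stroma-like cells it was at 44.8 and 63.8 CPM (33 and 129 UMIs), a ratio of 0.702 (0.464 to 1.04). Most classed cells carry immune markers, and 3′ reads can persist after a deletion, so these values do not check the knockout.

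All 7 genes are annotated as protein-coding in mm10, and all 7 had an entry in the promoter table. Gdf15 is a short gene at chr8:70629393-70632456 on the minus strand, Inhba lies at chr13:16011851-16031621 on the plus strand, and Tgfbi at chr13:56609523-56639562 on the plus strand of the same chromosome. The promoter sequences of Gdf15 and Inhba are shown because these ligands differed most between the libraries and were both higher in the TMEM16F KO library in macrophage-like cells. Each line gives the 250 bases before the start site, 5′ to 3′ on the gene's strand, from RefSeq on GRCm38.p6. The Gdf15 window is chr8:70632457-70632706 on the minus strand and the Inhba window is chr13:16011601-16011850 on the plus strand. Capitals mark a TATA box.
Gdf15: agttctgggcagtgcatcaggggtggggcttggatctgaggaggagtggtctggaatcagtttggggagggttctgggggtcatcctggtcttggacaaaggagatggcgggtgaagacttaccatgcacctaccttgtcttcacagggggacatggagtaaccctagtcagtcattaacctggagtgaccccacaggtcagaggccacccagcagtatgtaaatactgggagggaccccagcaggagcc
Inhba: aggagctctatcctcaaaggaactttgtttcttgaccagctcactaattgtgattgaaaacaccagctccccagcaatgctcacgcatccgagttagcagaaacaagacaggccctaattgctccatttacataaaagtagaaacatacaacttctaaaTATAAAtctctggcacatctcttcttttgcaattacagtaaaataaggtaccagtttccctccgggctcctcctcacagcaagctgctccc
Both windows were searched on both strands for 7 motifs, none of whose matches overlapped: AP-1 (TGANTCA), CRE (TGACGTCA), a C/EBP-ATF composite (TGATGCAA), the E-box CACGTG, the antioxidant element TGACNNNGC, a Smad element (CAGACA) and the TATA box TATAAA. The Inhba window held TATAAA once, from 91 bases before the start site, and 12.4% of 32851 promoter windows in the same table held that motif. The Gdf15 window at the annotated gene start held none of the 7, and a second Gdf15 start site has CACGTG, found in 6.02% of windows, 83 bases before it. GC content was 56.4% in the Gdf15 window and 43.2% in the Inhba window, against a median of 52.4% over all windows. Among all windows, AP-1 was found in 6.75%, CRE in 1.55%, the composite in 0.791%, the antioxidant element in 10.2% and the Smad element in 17.1%. A match is a run of letters and was not tied to the UMI counts by any measurement here.

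In macrophage-like cells, Gdf15 and Inhba, the stress-induced ligand and the activin A chain, were each about 3 times as high in the TMEM16F KO library as in the vector library, and the activin receptor Acvr2a was higher by a smaller margin. Tgfb1, Tgfbi, Tgfbr1 and Tgfbr2 all lay slightly lower. A gene was counted as higher or lower where CPM, the gene's share of all UMIs of the class, differed by a ratio of at least 1.5 and both libraries together held at least 50 UMIs. By that rule 3 of the 7 genes were higher and 0 were lower in macrophage-like cells; over 11744 genes measured there, 6.17% were higher and 5.78% lower. Gdf15 and Inhba stayed past 1.5 under all 12 alternatives tried, whereas Acvr2a fell short of it in 4, with ratios of 1.27 to 1.47. Monocyte-like cells gave 4 of 7 higher and 0 lower, where 6.11% of 8303 genes were higher and 2.52% lower. Of those 4, Tgfbr2 fell short of 1.5 in 8 of 12 alternatives and Acvr2a in 2, at 1.44 and 1.36. All 7 passed the filter on low counts in both classes. In stroma-like cells 5 of the 7 passed it, of which 2 were higher (Gdf15 and Tgfb1) and 1 lower (Inhba), against 12.9% and 9.86% of 6106 genes. The genes were chosen with part of this contrast known, and nothing is read from these counts.

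**Figure D1:**
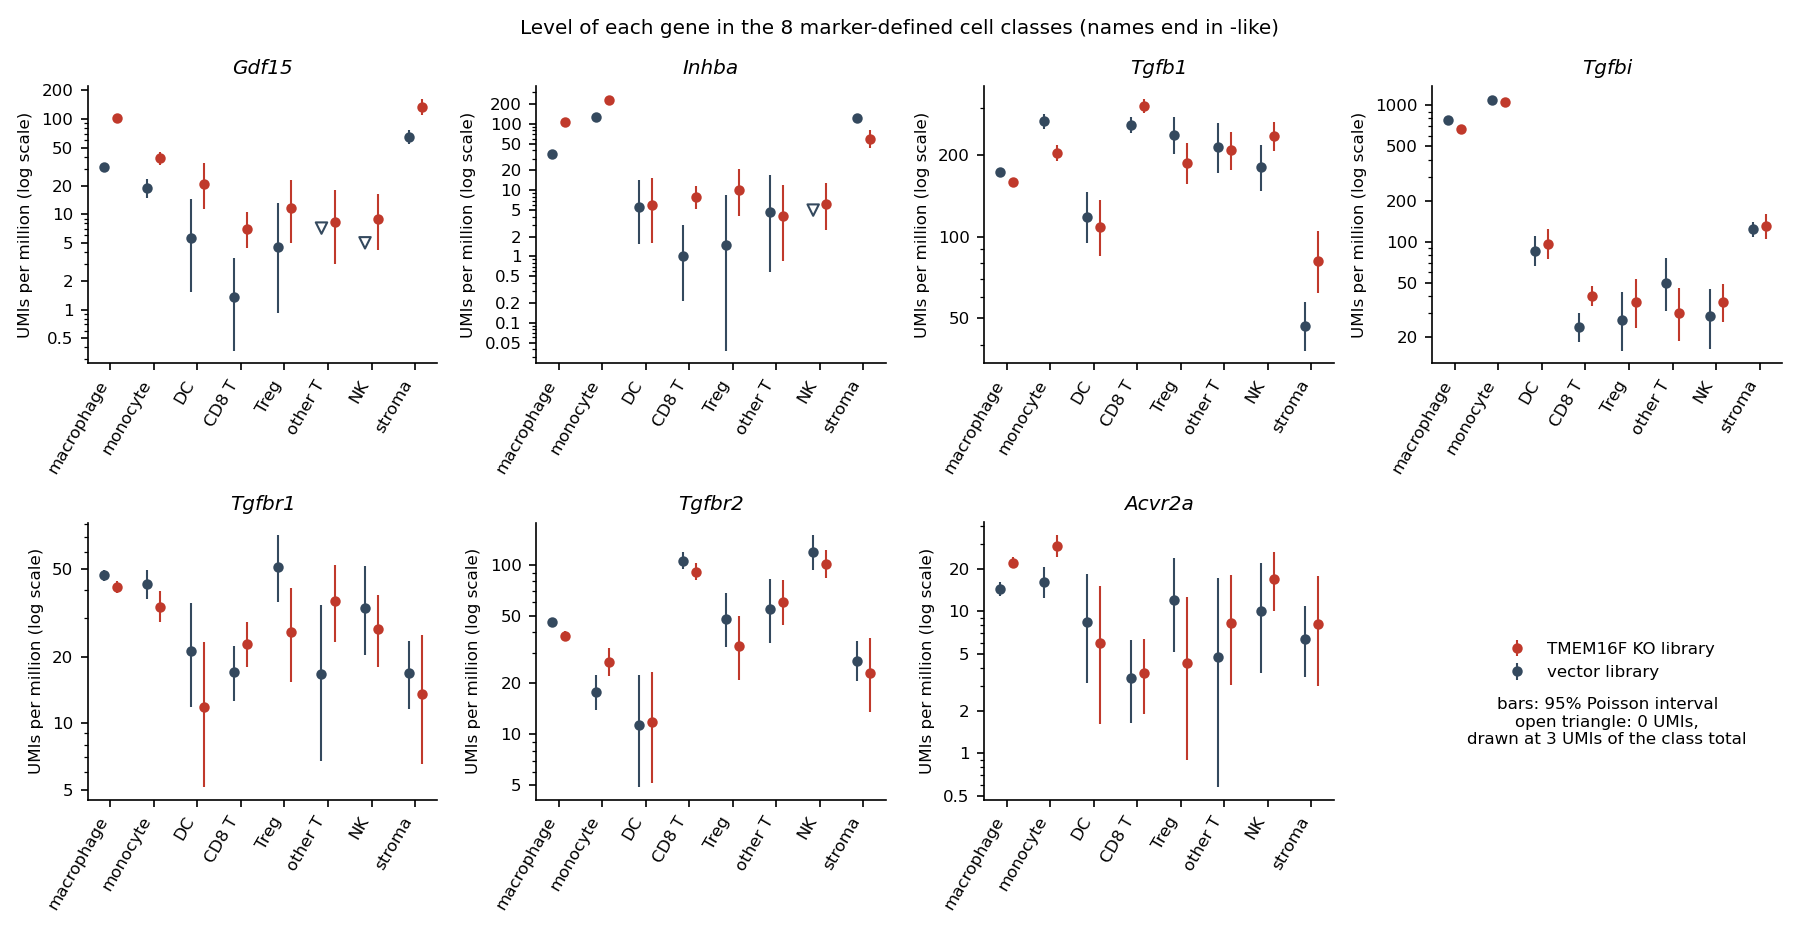
Level of each gene in CPM (log axis) in 8 cell classes, red for the TMEM16F KO library and dark blue for the vector library, with exact Poisson 95% intervals; open triangles mark classes with 0 UMIs, drawn at 3 UMIs. Gdf15 and Inhba stand high in macrophage-like, monocyte-like and stroma-like cells, Tgfbi in both phagocyte classes, and Tgfbr2 in NK-like and CD8 T-like cells.

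Macrophage-like cells of the TMEM16F KO library held Gdf15 at 102.6 CPM (2444 UMIs, interval 98.5 to 106.7), those of the vector library at 31.6 CPM (741 UMIs, 29.4 to 34.0). The ratio was 3.24 with an interval from 2.98 to 3.52. The intervals of the 2 libraries lay far apart. In the same cells the 8 neutrophil markers summed to 55.1 and 23.3 CPM, with Retnlg at 0 in both, and the 8 cycling markers to 185 and 442 CPM; their part in the ratios of Gdf15 and Inhba was not tested. Every cell was also thinned to 2000 UMIs. A Gdf15 UMI was then held by 12.6% of 2150 cells in the TMEM16F KO library and 5.60% of 1874 in the vector library. Unthinned shares were 24.6% and 12.7%. A share at a fixed depth also rises with the level in each cell, so it does not show whether more cells carried the transcript. A small number of cells held much of it. The top 1% of cells carried 28.9% and 35.5% of the Gdf15 UMIs, and single cells reached 92 and 40 UMIs. Without the 1% of cells with most Gdf15 UMIs the ratio was 3.58, so the difference was not confined to them. In monocyte-like cells Gdf15 was at 38.5 against 18.8 CPM, a ratio of 2.05 (1.55 to 2.73). Thinned shares there, 6.09% (4.14 to 8.57) and 4.38% (2.66 to 6.75), overlapped.

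The highest Gdf15 level of any class was in stroma-like cells. It was 134.5 CPM (99 UMIs) in the TMEM16F KO library and 64.8 CPM (131 UMIs) in the vector library. The class was drawn by a list of fibroblast and pericyte markers. Its cluster was led by Sparc, Bgn, Tm4sf1, Serpinh1, Ccn1, Col1a1, Crabp1, Col3a1, Sox9 and Dcn, and whether these are host or MC38 cells was not tested. The Gdf15 ratio was 2.07 (1.58 to 2.71), over 52 and 70 cells with medians of 11301.5 and 25154 UMIs. Thinned shares of these cells with a Gdf15 UMI, 16.7% (6.97 to 31.4) and 15.2% (7.51 to 26.1), overlapped. The 10 macrophage markers in these stroma-like cells summed to 1442 and 590 CPM with none at 0, and the 8 neutrophil markers to 209 and 9.90 CPM with 0 and 5 at 0; their part in the ratio was not tested. Stroma-like, macrophage-like and monocyte-like cells followed in that order in both libraries without overlap of intervals, except that monocyte-like cells overlapped DC-like cells in the TMEM16F KO library.

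The other classes held little Gdf15. DC-like cells had 14 and 4 UMIs, CD8 T-like cells 7.01 CPM (23 UMIs) and 1.36 CPM (4 UMIs), and NK-like cells 8.87 CPM (10 UMIs) and 0 UMIs, the latter allowing up to 5.01 CPM (the level of 3 UMIs). All T-like cells together held Gdf15 at 7.67% of the macrophage-like level in the TMEM16F KO library and at 5.50% in the vector library. For comparison, 10 phagocyte genes not used to draw the classes sat in T-like cells at a median of 6.88% (4.76 to 16.0) and 3.90% (2.62 to 18.3) of their macrophage-like level. Gdf15 in T-like cells is therefore within the range that RNA from other cells gives, and is not read as expression; the same holds for Inhba (7.21% and 4.25%) and Tgfbi (5.64% and 3.47%).

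Macrophage-like cells of the TMEM16F KO library held Inhba at 106.1 CPM (2528 UMIs), those of the vector library at 35.1 CPM (822 UMIs). The ratio was 3.02 (2.79 to 3.27). Thinned shares of cells were 12.5% and 4.75%, and unthinned ones 24.0% and 9.68%. The transcript was concentrated in few cells in the vector library, where the top 1% of macrophage-like cells held 48.4% of its UMIs against 24.9% in the TMEM16F KO library. Without those cells the ratio was 4.40. Monocyte-like cells had the highest level of any class, 227.8 CPM (1011 UMIs) against 126.2 CPM (504 UMIs), a ratio of 1.80 (1.62 to 2.01), with thinned shares of 17.8% and 10.6%; in the vector library their interval overlapped that of stroma-like cells. In the same monocyte-like cells the 8 neutrophil markers summed to 264.5 and 31.8 CPM with 3 and 1 at 0. Their part in the Inhba ratio was not tested. The first rank of monocyte-like cells for Inhba depended on how the class was drawn. In cluster 13, the only cluster that the same markers named monocyte-like, Inhba was at 187.7 CPM (117 UMIs) with TMEM16F KO. With vector it was at 16.0 CPM there (9 UMIs, 7.34 to 30.5), below the macrophage-like level, and the ratio was 11.7.

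Stroma-like cells went the other way for Inhba, with 59.8 CPM (44 UMIs) in the TMEM16F KO library and 123.7 CPM (250 UMIs) in the vector library, a ratio of 0.483 (0.342 to 0.668). That direction depended on how stroma was drawn: where whole clusters were named by the same markers, the ratio was 0.993. Thinned shares of stroma-like cells with Inhba did not share it, at 14.3% (5.43 to 28.5) of 42 TMEM16F KO cells and 10.6% (4.37 to 20.6) of 66 vector cells. These intervals overlapped. In the vector library 1 cell held 35 of the 250 UMIs. Of the partners that could turn an Inhba chain into another dimer, only Inha, which makes inhibin, and Inhbb were read. They were nearly absent from macrophage-like cells, with 0 and 1 UMIs of Inha and 0 and 1 of Inhbb. Fst, which encodes the activin-binding protein follistatin, had 3 and 9 UMIs, and Gfral, the Gdf15 receptor, had 0 in both, allowing up to 0.126 and 0.128 CPM. These 4 genes were named after their values were seen.

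Tgfb1 behaved differently, being broadly present and highest in lymphocytes and monocyte-like cells. CD8 T-like cells had 304.8 CPM (1000 UMIs) in the TMEM16F KO library and 259.1 CPM (761 UMIs) in the vector library, a ratio of 1.18 (1.07 to 1.29). This margin was not stable, since it was 1.01 with a stricter lead of markers and 1.01 as a mean over cells. NK-like cells had 235.8 and 180.5 CPM, a ratio of 1.31 (1.04 to 1.65) that was 1.05 at the lowest of 12 alternatives. Thinned shares of NK-like cells, 34.8% (27.5 to 42.7) and 32.9% (22.7 to 44.4), overlapped. Treg-like cells, named for regulatory T cells, had 187.1 and 238.4 CPM, a ratio of 0.785 (0.618 to 0.996). In macrophage-like cells the levels were 158.9 and 173.0 CPM (0.918, 0.878 to 0.960) and in monocyte-like cells 204.3 and 267.0 CPM (0.765, 0.700 to 0.837). The lowest class was stroma-like at 81.5 and 47.0 CPM, a ratio of 1.73 that was 1.08 with a stricter lead of markers. The 10 T cell markers in stroma-like cells summed to 561 and 241 CPM with none at 0, and their part in that ratio was not tested. Thinned shares in macrophage-like cells, 27.8% (25.9 to 29.7) and 29.5% (27.4 to 31.6), overlapped.

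The order of Tgfb1 levels had few clear steps. In the TMEM16F KO library CD8 T-like cells stood above the next class, NK-like cells, from which the intervals of neighbours overlapped in turn through other T-like, monocyte-like and Treg-like cells down to macrophage-like cells. In the vector library monocyte-like cells came first, but the 6 classes from there down to macrophage-like cells each overlapped the next. T-like cells as a whole held Tgfb1 at 172% and 145% of the macrophage-like level, far above the phagocyte genes used as a measure of free RNA.

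**Figure D2:**
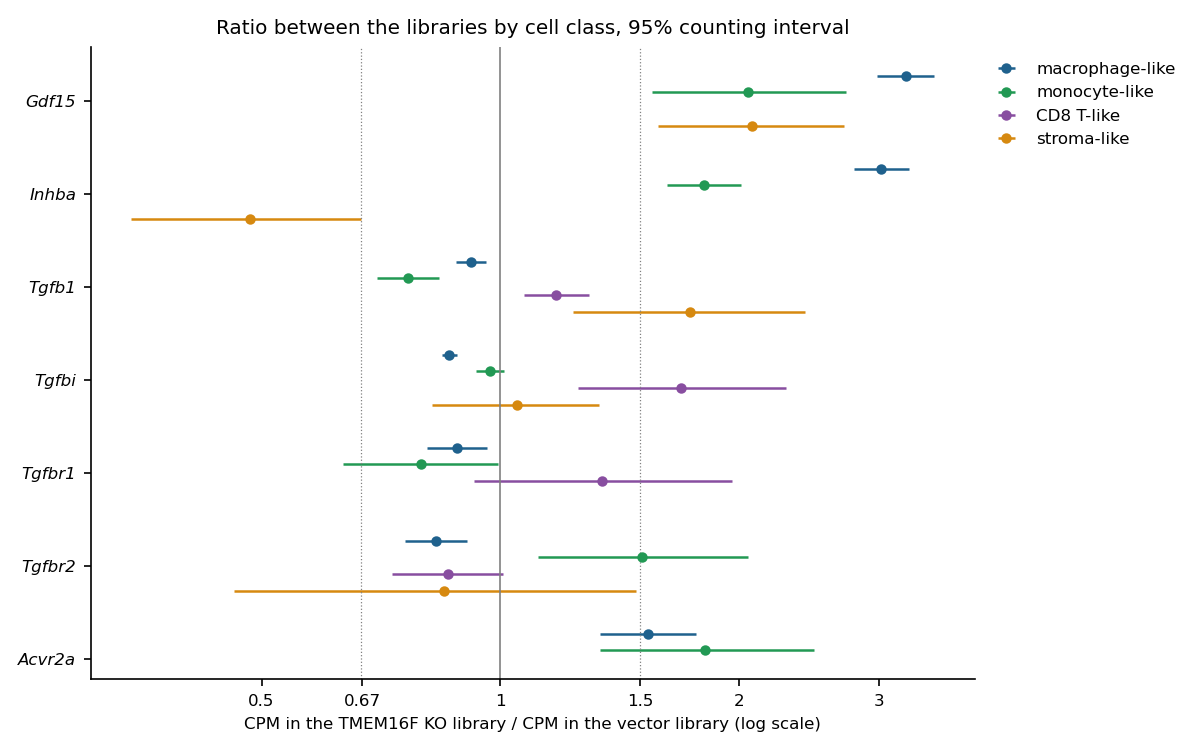
Ratio of CPM in the TMEM16F KO library to CPM in the vector library (log axis) for each gene in 4 cell classes, with exact conditional 95% intervals; dotted lines mark a ratio of 1.5 in either direction, and pairs with under 50 UMIs are left out. Gdf15 and Inhba lie right of 1.5 in macrophage-like cells, at 3.24 and 3.02, while Tgfb1, Tgfbi, Tgfbr1 and Tgfbr2 lie just left of 1.

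Tgfbi, which encodes an extracellular matrix adhesion protein, was a phagocyte gene in these tumours. Monocyte-like cells had 1053 CPM (4675 UMIs) in the TMEM16F KO library and 1086 CPM (4336 UMIs) in the vector library, so that the ratio was 0.970 (0.930 to 1.01). The macrophage-like class had 674.2 CPM (16064 UMIs) and 781.7 CPM (18304 UMIs), a ratio of 0.863 (0.844 to 0.881). After thinning, 61.9% and 69.1% of macrophage-like cells held a UMI. Stroma-like cells were far lower, at 130.4 and 124.2 CPM, and their intervals overlapped those of the next class, DC-like cells, in both libraries.

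Among the receptors, Tgfbr2, the type II receptor for TGF-beta, was highest in NK-like and CD8 T-like cells. NK-like cells had 101.1 CPM (114 UMIs) and 118.7 CPM (71 UMIs), and CD8 T-like cells 90.8 CPM (298 UMIs) and 105.9 CPM (311 UMIs), with overlapping intervals between the 2 classes in each library. Ratios were 0.852 (0.628 to 1.16) and 0.858 (0.729 to 1.01), so neither interval excluded 1. Treg-like cells were lower, at 33.1 CPM (23 UMIs) and 48.0 CPM (32 UMIs), and overlapped macrophage-like cells in both libraries. Macrophage-like cells had 37.9 CPM (904 UMIs) and 45.8 CPM (1072 UMIs), a ratio of 0.829 (0.758 to 0.906). Monocyte-like cells had 26.8 CPM (119 UMIs) and 17.8 CPM (71 UMIs), a ratio of 1.51 (1.11 to 2.05), but 0.750 where clusters were named by the same markers and 1.07 without the clusters rich in Malat1.

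Tgfbr1, the type I receptor for TGF-beta, had 41.3 CPM (984 UMIs) and 46.8 CPM (1097 UMIs) in macrophage-like cells, a ratio of 0.882 (0.808 to 0.962). Thinned shares of 9.63% and 9.77% were nearly equal, and as a mean over cells the ratio was 1.03. Monocyte-like cells had 33.8 and 42.6 CPM (0.794, 0.633 to 0.994). Neighbouring classes were not told apart: in each library the interval of every class overlapped that of the next one down the order. Classes further apart in the order did differ. The macrophage-like intervals were 38.8 to 44.0 CPM with TMEM16F KO and 44.1 to 49.7 CPM with vector. Those of CD8 T-like cells were 18.0 to 28.7 and 12.6 to 22.4 CPM. Intervals of stroma-like and DC-like cells also lay below the macrophage-like ones in both libraries. Treg-like cells led the vector library at 51.0 CPM from 34 UMIs, against 25.9 CPM from 18 UMIs in the TMEM16F KO library.

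Acvr2a, a type II receptor for activins, was highest in monocyte-like cells as drawn here. They had 29.1 CPM (129 UMIs) in the TMEM16F KO library and 16.0 CPM (64 UMIs) in the vector library, a ratio of 1.81 (1.33 to 2.49). Next came macrophage-like cells with 22.1 CPM (526 UMIs) and 14.4 CPM (337 UMIs), overlapping the monocyte-like interval in the vector library only, and the ratio was 1.53 (1.34 to 1.76). Thinned shares of macrophage-like cells were 5.02% (4.14 to 6.03) and 3.31% (2.55 to 4.22), whose intervals overlapped slightly. CD8 T-like cells were at the bottom of the order, with 12 and 10 UMIs. The first rank of monocyte-like cells was not seen in cluster 13, the only cluster that the same markers named monocyte-like. Acvr2a there was at 12.8 CPM (8 UMIs) with TMEM16F KO and 8.91 CPM (5 UMIs) with vector, below the macrophage-like levels. With so few UMIs the intervals, 5.54 to 25.3 and 2.89 to 20.8 CPM, still reached those levels.

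The phagocytes were also grouped into 9 clusters, drawn without the 7 genes. Gdf15 was higher in the TMEM16F KO library in 9 of 9 clusters, with ratios from 1.65 to 3.01 and intervals above 1 in all 9. Its level varied far more between clusters than between libraries. In cluster 14, led by Retnla, Cd209f and Saa3, it reached 588.6 CPM (826 UMIs) and 280.6 CPM (128 UMIs), while in cluster 8 it was at 19.0 and 7.48 CPM. Cluster 14 had 179 cells in the TMEM16F KO library and 68 in the vector library, and held 31.2% and 15.6% of all Gdf15 UMIs in phagocyte clusters. Without cluster 14 the macrophage-like ratio was 2.70 in place of 3.24, and with clusters weighted alike it was 2.37.

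Inhba had another distribution, although its ratio was also above 1 in 9 of 9 clusters, with intervals above 1 in 7. Ratios ran from 1.27 in cluster 8 to 11.7 in cluster 13, a monocytic cluster led by Ifitm6, Plac8 and Hp, where the vector library had only 9 UMIs (16.0 CPM) against 117 (187.7 CPM). Its highest level in the TMEM16F KO library was in cluster 12, at 578.2 CPM (439 UMIs) against 138.5 CPM (43 UMIs). In the vector library the highest was cluster 5, led by Nrg1 and Antxr2, at 176.9 CPM (323 UMIs) against 261.0 CPM (693 UMIs) in the TMEM16F KO library. The cycling phagocytes of cluster 11, with 57 and 254 cells, had almost no Inhba, at 7.93 CPM (8 UMIs) and 5.84 CPM (22 UMIs). Cluster 14, where Gdf15 peaked, had Inhba at 84.8 and 41.7 CPM.

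**Figure D3:**
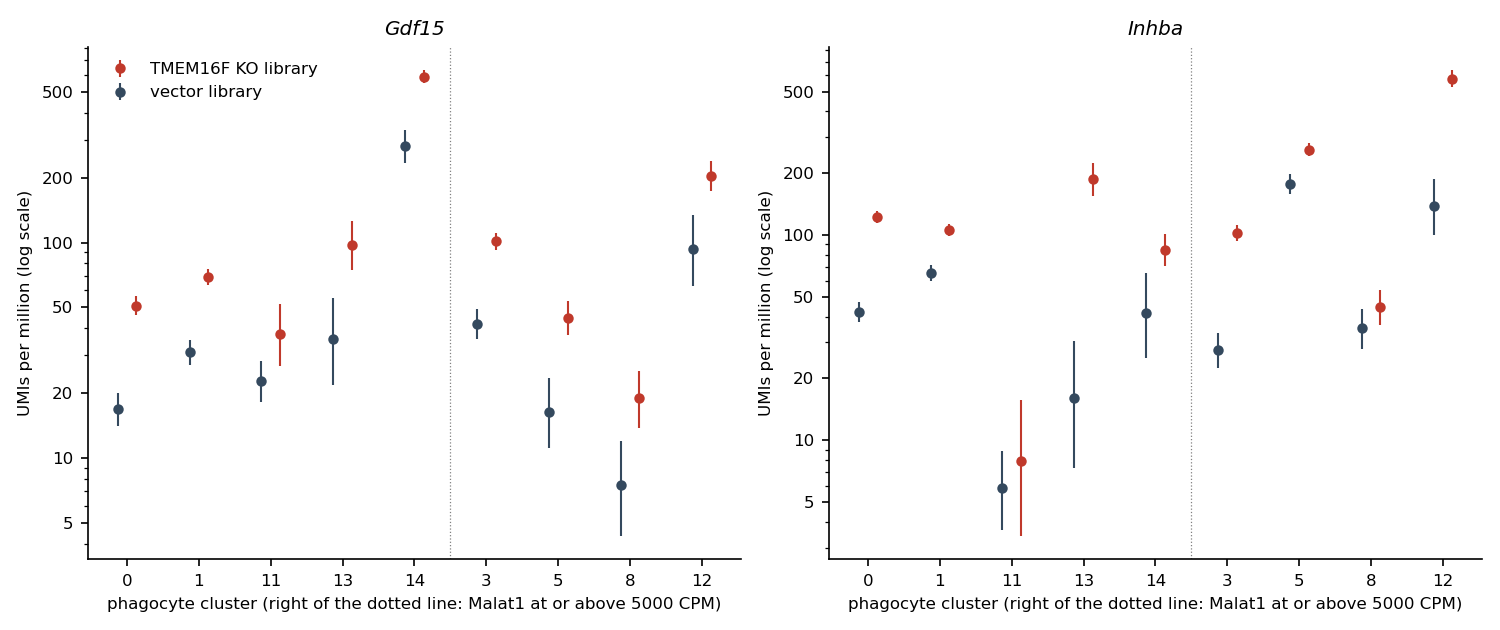
Gdf15 and Inhba in CPM (log axis) in the 9 phagocyte clusters, red for the TMEM16F KO library and dark blue for the vector library, with exact Poisson 95% intervals. The red point is above the blue point in every cluster for both genes, Gdf15 peaks in cluster 14 at 588.6 CPM and Inhba in cluster 12 at 578.2 CPM.

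Tgfbi and both TGF-beta receptors moved little or downward within clusters. Tgfbi was below 1 in 9 of 9 clusters, with ratios from 0.703 to 0.979 and intervals below 1 in 5, and it was highest in cluster 0, led by Il1r2 and Il1b, at 1072 and 1096 CPM. Tgfbr1 was below 1 in 9 of 9, from 0.589 to 0.912, with intervals below 1 in 6. Tgfbr2 was above 1 in 1 of 9 clusters and was highest in cluster 14 in the TMEM16F KO library, at 83.4 against 114.0 CPM. Tgfb1 was above 1 only in cluster 12, with a ratio of 1.50 (1.09 to 2.09), and peaked in the monocytic cluster 13 at 316.0 and 367.2 CPM. Acvr2a was above 1 in 8 of 9 clusters, with intervals above 1 in 3, and its exception was cluster 3, led by Hdac9 and Vcam1, with a ratio of 0.848 (0.649 to 1.11).

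Levels of Tgfbr1 and Acvr2a followed Malat1, an abundant nuclear long noncoding RNA, across these clusters. Of the 9, clusters 3, 5, 8 and 12 had at least 5000 CPM of Malat1, and cluster 12 reached 43816 and 41873 CPM with a median of 3274 UMIs a cell. Tgfbr1 in cluster 12 was at 259.5 and 393.1 CPM, and Acvr2a at 146.2 and 106.3 CPM, the highest values of both genes in both libraries. In the 4 clusters rich in Malat1 together, Tgfbr1 was at 77.7 and 91.8 CPM against 19.8 and 28.0 CPM in the other 5. Acvr2a was at 46.3 and 33.6 CPM against 10.3 and 7.04 CPM. Gdf15 did not share this, with 76.4 and 28.8 CPM in the clusters rich in Malat1 and 101.3 and 29.9 CPM in the others.

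Malat1 itself was higher in the TMEM16F KO library, at 6013 against 3803 CPM in macrophage-like cells, and the clusters rich in it held 1348 cells there and 844 in the vector library. Over all cells of the phagocyte clusters, Acvr2a had a ratio of 1.38 (1.19 to 1.60) within the clusters rich in Malat1 and 1.46 (1.16 to 1.83) within the others. In macrophage-like cells alone its ratio was 1.56 without the clusters rich in Malat1, against 1.53 with them, 1.40 without cluster 12 and 1.27 with clusters weighted alike. For Gdf15 the split gave ratios of 2.66 and 3.39, and for Inhba 2.43 and 2.53, so both ligands were higher in the TMEM16F KO library on either side of it.

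**Figure D4:**
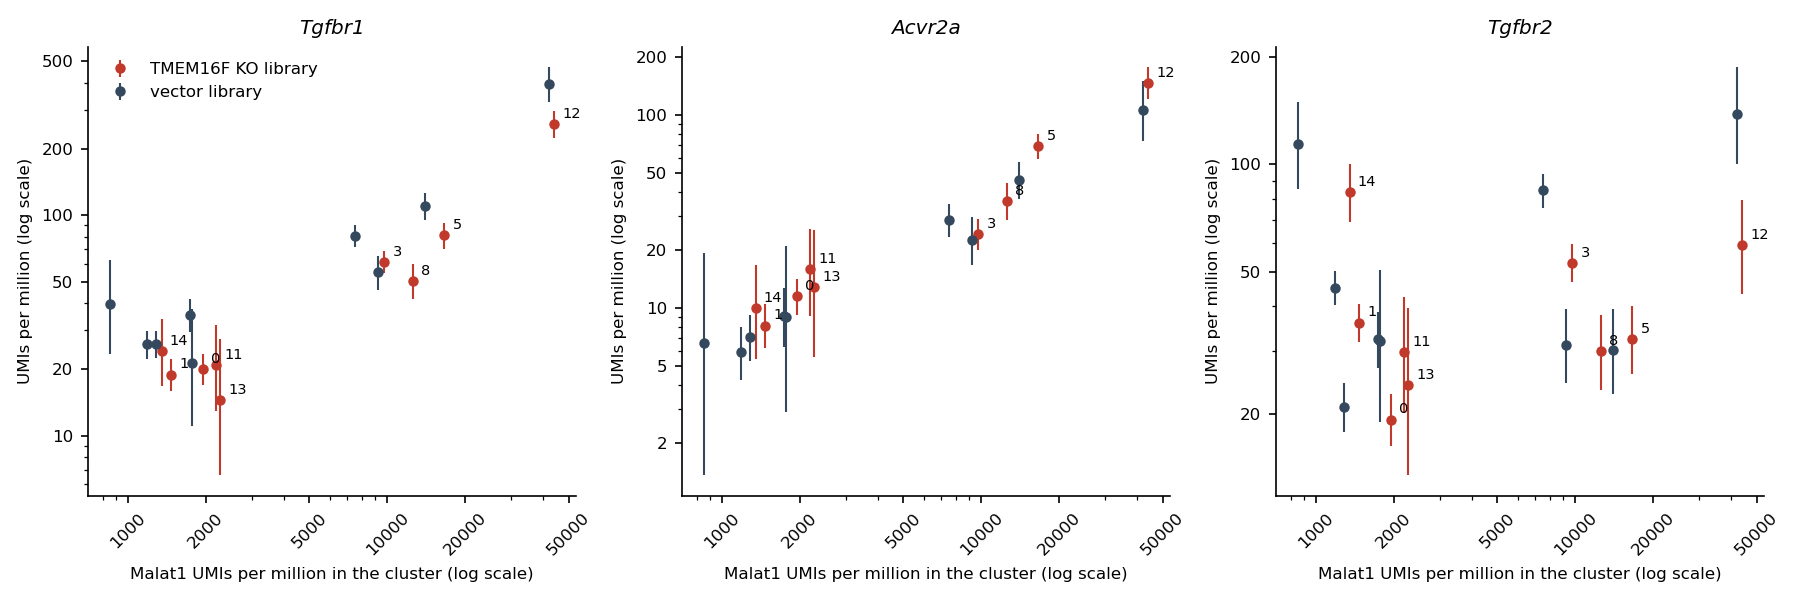
Receptor levels against Malat1 in the 9 phagocyte clusters, both in CPM on log axes, 1 point per cluster and library with exact Poisson 95% intervals; numbers give the cluster beside its red point. Tgfbr1 and Acvr2a rise with Malat1 up to cluster 12, reaching 259.5 and 146.2 CPM with TMEM16F KO, while Tgfbr2 shows no such order.

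Within single macrophage-like cells thinned to 2000 UMIs, cells with a UMI of a gene were set beside cells without one, in each library on its own. Cells with Gdf15 held more Apoe, which encodes a lipid carrier, at 11614 against 4795 CPM in the TMEM16F KO library and 6733 against 3472 CPM in the vector library. Abca1, a lipid exporter, the chemokines Ccl3 and Ccl8, the noncoding RNA Neat1 and the heat shock gene Hspa1b completed the 6 genes with the strongest association in both libraries. The Ccl8 level was 2397 against 1344 CPM and 3218 against 1174 CPM. Ccl8 is also among the genes that lead cluster 14.

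Cells with Inhba were led by other genes. Malt1, a signalling protease upstream of NF-kB, was at 1016 against 289 CPM (TMEM16F KO) and 955 against 176 CPM (vector). Pitpnc1, Abtb2, Chka, Slc7a11 (the cystine transporter) and Antxr2 completed its 6 genes. Cells with Inhba also held more Malat1, at 14646 against 7760 CPM and 15487 against 4805 CPM, whereas cells with Gdf15 differed little in Malat1 in either library (ratios of 1.12 and 1.01). Cells with Tgfbr1 had Malat1 at 24887 against 7073 CPM and 16577 against 4127 CPM, and their leading genes were Mpp7, Tcf12 and Arhgap24. Cells with Acvr2a were led by Ext1, Nfat5 and Gab2, with Malat1 at 23581 against 7780 CPM and 18862 against 4815 CPM.

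Cells with Tgfbi held more Ccr2, the monocyte chemokine receptor, at 126 against 58.5 CPM and 193 against 74.5 CPM, together with Spint1, Klrb1b, H2-DMb2, Lsr and Il1r2, and they held less Malat1 (ratios of 0.649 and 0.632). Cells with Tgfbr2 held more Ccl8, Selenop, and the interferon-induced genes Ifih1 and Rsad2. The associations of Tgfb1 were weak, with no ratio above 1.63 among its 6 genes in either library, with Thoc6 and Map2k3 first. These are comparisons between cells of 1 library and show which transcripts were captured together. The 6 genes were picked by these same ratios, among genes with at least 50 UMIs in the cells with the gene, so high ratios are built in. Cells with the gene numbered 276 (TMEM16F KO) and 101 (vector) for Gdf15, 277 and 78 for Inhba, and 118 and 58 for Acvr2a.

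Over the 16 points given by 8 classes in 2 libraries, the genes whose log2(CPM + 1) was most like that of Gdf15 among 8328 genes were Cav2 (Pearson r 0.94), Cnn3, Slc35f5, Upp1 and Cxcl1. For Inhba they were Pla2g7 (0.96), Ctsl, Slc16a3, Thbs1 and Ier3, for Tgfb1 Gng2 (0.94), Zc3h12a, Cd53, Pstpip1 and Galnt6, and for Tgfbi Cstb (0.98), Tpd52, Tgm2 and Plaur. For Tgfbr2 they were Maml2 (0.93), Rapgef1, Kif13b, Dgkd and Smyd3, and for Acvr2a Runx1 (0.92), Cux1, Morc3, Diaph2 and Tiparp. Tgfbr1 had the loosest likeness, led by Gpr108 at 0.84. Between the genes themselves, r was 0.83 for Gdf15 with Inhba, 0.86 for Inhba with Tgfbi and -0.53 for Gdf15 with Tgfb1. The points share libraries and depth, and these values describe the order of the classes only.

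The rest of the pathway was read in macrophage-like cells from 6 lists with 89 genes besides the 7, of which 88 were in the files and 50 had enough UMIs. Of those 50, 4 were higher, 3 were lower and 43 lay between, which is near the 6.17% and 5.78% of all genes, and their median log2 ratio was 0.14, against 0.01 over all 11744 genes. Thbs1, which encodes thrombospondin 1, an activator of latent TGF-beta, was the most raised at 172.0 against 86.6 CPM (ratio 1.98, 1.88 to 2.09). Pmepa1, a target and feedback inhibitor of TGF-beta signalling, was the lowest at 141.0 against 264.3 CPM, 1.87-fold lower in the TMEM16F KO library. Pmepa1 was 1.53-fold lower in monocyte-like cells too, at 104.8 against 159.8 CPM.

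Of the 19 measured genes of the response list, 2 were higher and 2, Pmepa1 and Itgae, were lower. Id3, a transcriptional inhibitor responsive to this family, was at 57.6 against 32.8 CPM (1.76, 1.61 to 1.92) and Timp1, an inhibitor of matrix metalloproteinases, at 57.7 against 37.5 CPM (1.54, 1.41 to 1.67). Outside that list, the inhibitory Smad6 was at 2.77 against 1.79 CPM (66 and 42 UMIs, 1.54, 1.03 to 2.33), and the ligand Lefty1 1.69-fold lower from 38 and 63 UMIs. Itgae was 1.71-fold lower from 22 and 37 UMIs, with an interval of the ratio that reached 1.02. None of the 5 measured Smad proteins and none of the 5 measured other receptors or coreceptors passed the ratio in either direction. At a ratio of 2, the pathway counts were 0 higher and 0 lower, and the share of all genes at that ratio is not given.

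**Figure D5:**
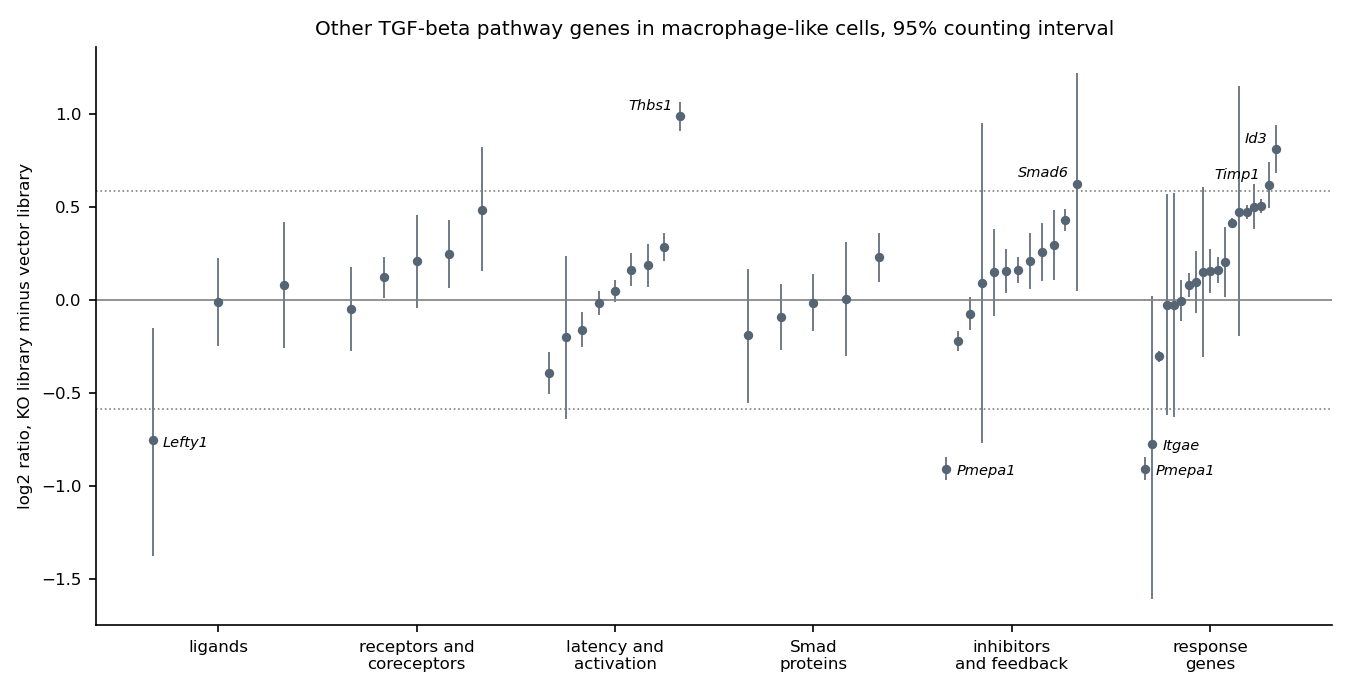
Log2 ratio of CPM, TMEM16F KO library minus vector library, in macrophage-like cells for 50 measured genes of 6 TGF-beta pathway lists without the 7 genes, with exact 95% counting intervals; dotted lines mark a ratio of 1.5 in either direction, named genes pass it, and a gene in 2 lists is drawn in both. Most genes lie near 0, Thbs1 is the highest and Pmepa1 the lowest.

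Because Gdf15 is a known target of the integrated stress response and of p53, lists for both were read in the same cells; the shares of all genes to set beside each count are again 6.17% higher and 5.78% lower. Of 16 measured genes of the integrated stress response, 2 were higher and 1 was lower, with a median log2 ratio of -0.05: Ddit4, an inhibitor of mTOR signalling, at 39.6 against 20.5 CPM (1.93, 1.73 to 2.16), Slc7a11 at 135.6 against 70.7 CPM (1.92, 1.81 to 2.04), and Psat1, a serine synthesis enzyme, 1.71-fold lower. Of 13 measured p53 targets, 3 were higher and 0 lower, with a median of 0.12: Phlda3 at 6.59 against 2.78 CPM (2.37, 1.77 to 3.22), Trp53inp1 (1.91, 1.45 to 2.55) and Mdm2, the p53 ubiquitin ligase, at 134.9 against 87.6 CPM (1.54, 1.46 to 1.63). Among 14 hypoxia and glycolysis genes only Vegfa, the angiogenic growth factor, passed, at 212.0 against 134.8 CPM (1.57, 1.50 to 1.64). The median log2 ratio of these 14 was 0.23, against 0.01 over all genes.

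Of 12 genes known to respond to tissue dissociation, 2 were higher and 2 lower, against 6.17% and 5.78% of all genes. Their median log2 ratio was 0.19, against 0.01 over all genes. Egr1 was at 265.0 against 152.4 CPM (1.74, 1.67 to 1.81) and Btg2 at 384.0 against 252.6 CPM (1.52, 1.47 to 1.57), while Hspa1b and Hspa1a, near-identical copies between which reads cannot be placed with certainty, were 2.09-fold and 1.89-fold lower in the TMEM16F KO library. Hspa1b was thus lower in the library with more Gdf15, although within each library cells with Gdf15 held more of it. The part of dissociation in the Gdf15 and Inhba ratios was not tested.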

How the data were processed

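The data are 10x Genomics 3′ single-cell RNA counts, 1 library per group. The authors deposited raw UMI counts per gene and barcode, for which the file headers record Cell Ranger 8.0.0. The submitters' processing notes name mm10 and Seurat 3.1.1. No label or header says if intronic reads were counted.

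Barcodes with under 200 genes or over 20% mitochondrial UMIs were dropped (18 with TMEM16F KO and 4 with vector). Scrublet's own threshold called 0 doublets in each library, so a share of 0.8% for every 1000 barcodes, taken from the top of the scores, was dropped instead (287 and 221). A cell entered a class when it held at least 3 distinct markers of it, its marker score led every other lineage by a factor of 1.5, and its Leiden cluster (scanpy 1.11.5) was of the same lineage; macrophage-like and monocyte-like were split by the higher score, and 186 of 2974 and 146 of 2634 phagocytes lay within a factor of 1.25 of that line. The 7 genes took no part in the clustering. Cluster names rest on the same markers.

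UMIs were summed over the cells of a class and given per 1000000 UMIs (CPM). Intervals are at 95%: exact Poisson for levels, exact conditional binomial for ratios, Clopper-Pearson for shares of cells after thinning to 2000 UMIs. They treat UMIs as independent and cover counting error only. Ratio and interval code was tested on simulated data. The members and lists were chosen with earlier results of these data known. Listed genes are named where they had at least 50 UMIs and a ratio of 1.5 in macrophage-like cells, at most 4 per list; Ddit3 was left out of its list because its symbol is not unique in the files. Like patterns name 5 genes with at least 500 UMIs (1 gene for Tgfbi is not reported here), and single-cell associations 6 genes with at least 50 UMIs in the cells with the member in each library. Alternatives changed the classes, the scaling, the filters and the clusters included.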

Additional observations from a re-analysis of the deposited data

Results flagged for a closer look

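For 4 genes the ratio between the TMEM16F KO library and the vector library lay on opposite sides of 1 in different cell classes, each with an interval that excluded 1. The difference between classes was not tested, since each group has 1 library.

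Inhba had ratios of 3.02 (2.79 to 3.27) in macrophage-like cells, 1.80 (1.62 to 2.01) in monocyte-like cells and 7.76 (2.38 to 40.1) in CD8 T-like cells, the last from 26 and 3 UMIs and at the level of free RNA, and 0.703 with whole clusters. In stroma-like cells it was 0.483 (0.342 to 0.668), a value that became 0.993 with whole clusters, and thinned shares of cells there overlapped.

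Tgfb1 had ratios of 1.18 (1.07 to 1.29) in CD8 T-like, 1.31 (1.04 to 1.65) in NK-like and 1.73 (1.23 to 2.42) in stroma-like cells. At the lowest of the alternatives these were 1.01, 1.05 and 1.08, the last with a stricter lead of markers. T cell markers in stroma-like cells stood at 561 and 241 CPM. Tgfb1 ratios were 0.918 (0.878 to 0.960) in macrophage-like, 0.765 (0.700 to 0.837) in monocyte-like and 0.785 (0.618 to 0.996) in Treg-like cells.

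Tgfbi had a ratio of 1.69 (1.25 to 2.29) in CD8 T-like cells, where its level was within the range of free RNA, and 0.863 (0.844 to 0.881) in macrophage-like cells. Tgfbr2 had a ratio of 1.51 (1.11 to 2.05) in monocyte-like cells and 0.829 (0.758 to 0.906) in macrophage-like cells. The monocyte-like ratio fell short of 1.5 in 8 of 12 alternatives and was 0.750 with whole clusters, on the same side of 1 as in macrophage-like cells.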

How the results depend on the processing

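Of the ratios printed, 24 of single genes in a class were recomputed under up to 12 alternatives, 6 of them chosen after the data were seen (marker UMIs alone, clusters weighted alike, and leaving out clusters rich in Malat1, cluster 14, cluster 12 or the 1% of cells with most UMIs of the gene). Ratios in macrophage-like cells kept their side of 1 under all 12, except that of Tgfbr1. As a mean over cells, ratios were 3.60 for Gdf15, 0.975 for Tgfb1, 0.821 for Tgfbi, 0.953 for Tgfbr2 and 1.03 for Tgfbr1. With clusters weighted alike they were 2.37 for Gdf15, 2.48 for Inhba, 0.894 for Tgfbi, 0.744 for Tgfbr1, 0.734 for Tgfbr2 and 1.27 for Acvr2a. Without clusters rich in Malat1 they were 3.57 for Gdf15, 0.843 for Tgfbi, 0.730 for Tgfbr1 and 0.926 for Tgfbr2. Without cluster 14 Gdf15 was at 2.70. Without the 1% of cells with most UMIs Gdf15 was at 3.58 and Inhba at 4.40. With clusters named by the same markers Inhba was at 2.51 and Tgfbi at 0.883, and in monocyte-like cells, then a single cluster, Tgfbr2 was at 0.750 and Inhba at 11.7; in CD8 T-like cells Inhba was at 0.703. Leaving out mitochondrial, ribosomal protein and haemoglobin genes put Tgfbi at 0.828. Acvr2a in macrophage-like cells fell short of a ratio of 1.5 in 4 of 12 alternatives, among them 1.47 with doublets kept and 1.40 without cluster 12. The cause of these shifts was not tested.

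Of the pathway genes besides the 7, 0 were higher and 0 lower at a ratio of 2, which is a stricter rule. With no filter but 1 UMI in each library 12 were higher and 11 lower. The shares of all genes under these 2 rules are not given, so nothing is read from these counts. For the integrated stress response the counts were 0 and 0 at a ratio of 2. With 1 UMI, Ddit4, Slc7a11 and Chac1 (10 and 3 UMIs) were higher, and 2, Psat1 and Vldlr (1 and 2 UMIs), were lower. No paired analysis was possible because each group has 1 library. Depth limits the lymphocyte and stroma-like values, several of which rest on under 50 UMIs.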
